A study of Mus musculus with 4 samples.

Results

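The levels of 10 genes that mark the oligodendrocyte lineage were followed in bulk RNA-seq of mouse prefrontal cortex (PFC) in which *Ash1L*, a histone methyltransferase gene, had been knocked down. They were chosen by name, with earlier results of these data known. *Pdgfra* and *Cspg4* stand for precursor cells, and *Olig1*, *Olig2*, *Sox10* and *Nkx2-2* for the whole lineage. *Gpr17*, *Bmp4*, *Enpp6* and *Myrf* stand for committed precursors and newly formed oligodendrocytes. All 10 were found among the 23420 gene symbols of the count tables, and all 10 passed the filter on low counts that left 16232 genes for testing.

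Oligodendrocyte precursor cells (OPCs) persist in the adult cortex, where they divide, renew themselves and give rise to myelinating cells. They carry the PDGF receptor and the NG2 proteoglycan on their surface. On commitment they lose these proteins and pass through a short premyelinating stage, marked by *Gpr17*, *Bmp4* and *Enpp6*, before *Myrf* switches on the myelin genes. The basic helix-loop-helix factors *Olig1* and *Olig2* and the HMG-box factor *Sox10* are expressed from precursor to mature cell.

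There were 2 samples in each group, and the labels call them biological duplicates. All mice were C57BL6/J, all received AAV9 in the medial PFC, and all samples were whole lysates of tissue punches that contained GFP fluorescence. The control samples came from mice labelled as injected with GFP AAV9, a virus that the study's methods describe as carrying a scrambled shRNA, and the *Ash1L* shRNA samples from mice given GFP-tagged AAV9 with an shRNA against *Ash1L* driven by the U6 promoter, which is not restricted to any cell type. The series is described with 3 knockdown and 2 control mice aged 6 to 8 weeks, whereas the methods state injection at 5 weeks and pooling of tissue from 3 mice for each sample. In such bulk tissue, fewer cells of a type and less RNA per cell cannot be told apart, and infected and uninfected cells are measured together.

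Total counts were 14251190 and 35764874 in control samples 1 and 2, and 27479339 and 20106708 in *Ash1L* shRNA samples 1 and 2. Levels are given as counts per 1000000 (CPM) after TMM scaling. The targeted gene stood at 245 and 290 CPM in the control samples and at 216 and 138 CPM in the *Ash1L* shRNA samples, and its log2 fold change was -0.60 ± 0.22 (SE). The knockdown samples resembled each other less than the controls did, with a median absolute log2 difference between samples of one group of 0.214 against 0.156, and *Ash1L* shRNA sample 2 stood apart in its microglial genes. Of 6 microglial markers, 5 stood in *Ash1L* shRNA sample 2 at no more than 0.5 times their level in sample 1, so values that rest on either sample are given with and without it. Neuronal markers summed to between 637 and 934 CPM per kb of exon and mature myelin genes to between 489 and 633, so the tissue held both cell classes in every sample.

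*Pdgfra*, *Cspg4*, *Olig2* and *Sox10* lay above both controls in each of the *Ash1L* shRNA samples, by 1.21- to 1.35-fold in the group means. *Gpr17*, *Bmp4* and *Enpp6* had no common direction, since each was above both controls in *Ash1L* shRNA sample 1 and below both in sample 2. *Olig1* showed a smaller split of the same kind, and *Nkx2-2* and *Myrf* overlapped between the groups. By the study's definition of a changed gene, an unadjusted p under 0.05 and at least a 1.2-fold change, *Pdgfra* and *Sox10* were UP and no gene of the 10 was DOWN (edgeR quasi-likelihood test). Among all genes tested 8.61% were UP and 8.28% DOWN by the same definition. The 4 genes that lay above both controls compare with 26.5% of all genes, and the 0 genes that lay below both controls with 26.8%. None of the 10 passed an adjusted p of 0.05 by edgeR or by DESeq2, 2 of the 10 had an unadjusted p under 0.05 by edgeR and 0 by DESeq2. Of all genes, 0.00616% passed the adjusted threshold by edgeR, and DESeq2 called 7.55% UP and 7.79% DOWN, with 421 past the adjusted threshold. The median log2 fold change of the 10 was 0.17, against -0.0027 over all genes tested.

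**Figure D1:**
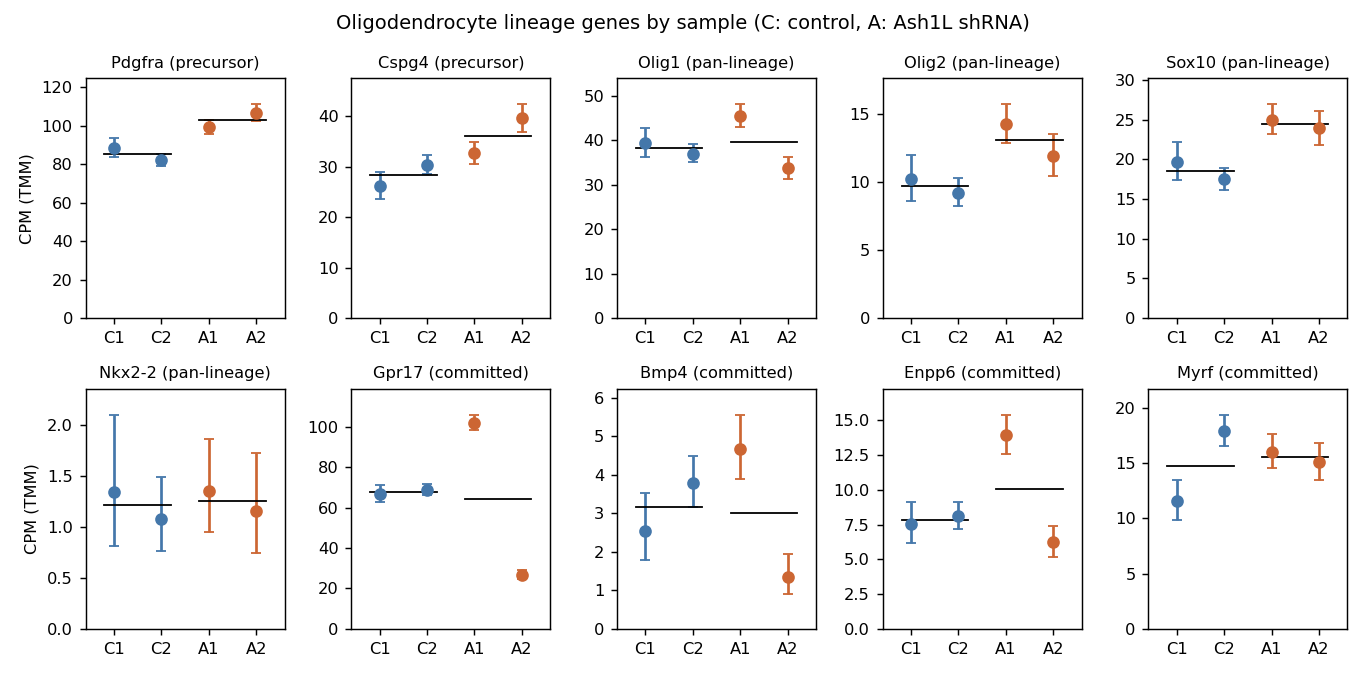
Level of each lineage gene in each sample in CPM (TMM-scaled) on axes that start at 0, with C1 and C2 the control samples, A1 and A2 the *Ash1L* shRNA samples, bars the exact 95% Poisson interval of the count and black lines the group means. *Pdgfra*, *Cspg4*, *Olig2* and *Sox10* lie higher in both *Ash1L* shRNA samples, whereas *Gpr17* is at 102.0 CPM in A1 and at 26.7 CPM in A2, with the controls between.

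In the control cortex the genes differed widely in level. Per kb of exon, *Olig1* was the most abundant at 17.7 CPM per kb, followed by *Gpr17* at 13.1, *Pdgfra* at 8.52, *Sox10* at 6.09, *Olig2* at 3.84 and *Cspg4* at 2.37 (means of the control samples). The control samples of each of these neighbours in the order did not overlap. Below them, *Myrf* at 1.72 overlapped *Bmp4* at 1.41, and *Bmp4* overlapped *Enpp6* at 1.22 CPM per kb. *Nkx2-2* was lowest at 0.422 CPM per kb and was covered by only 19 to 38 counts per sample, so its changes could not be resolved at this depth.

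The bases just before the start of 5 of the 10 genes are given to show the promoters of genes that were higher in both knockdown samples (*Pdgfra*, *Cspg4*, *Olig2*) and of genes that were split between them (*Bmp4*, *Enpp6*). They were read from a set of RefSeq promoter windows on GRCm38.p6 that was at hand for 6 of the 10 genes. Each printed stretch stops short of both the RefSeq and the GENCODE gene start, which left too few bases of *Nkx2-2* to print. Letters are 5′ to 3′ on the strand of the gene, and capitals mark a match to one of the motifs searched on both strands. These were CATCTG and the palindrome CAGCTG, which are E-box letters of basic helix-loop-helix factors such as OLIG2, and also AACAAT, letters that SOX factors bind.
Pdgfra: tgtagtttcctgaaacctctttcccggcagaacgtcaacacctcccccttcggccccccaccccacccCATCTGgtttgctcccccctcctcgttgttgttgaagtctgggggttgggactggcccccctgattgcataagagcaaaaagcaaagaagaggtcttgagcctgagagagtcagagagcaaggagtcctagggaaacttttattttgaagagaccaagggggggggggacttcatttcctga
Cspg4: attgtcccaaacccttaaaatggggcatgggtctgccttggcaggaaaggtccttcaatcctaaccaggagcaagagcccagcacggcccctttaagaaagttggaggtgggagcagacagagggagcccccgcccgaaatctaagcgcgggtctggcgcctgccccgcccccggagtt
Olig2: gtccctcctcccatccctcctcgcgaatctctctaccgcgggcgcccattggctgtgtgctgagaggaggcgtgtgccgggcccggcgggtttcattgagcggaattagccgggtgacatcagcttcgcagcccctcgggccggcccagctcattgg
Bmp4: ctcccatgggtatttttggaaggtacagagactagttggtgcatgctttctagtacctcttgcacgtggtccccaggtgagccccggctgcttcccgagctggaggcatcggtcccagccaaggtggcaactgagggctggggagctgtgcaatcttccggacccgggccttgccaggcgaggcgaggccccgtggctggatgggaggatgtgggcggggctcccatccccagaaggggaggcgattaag
Enpp6: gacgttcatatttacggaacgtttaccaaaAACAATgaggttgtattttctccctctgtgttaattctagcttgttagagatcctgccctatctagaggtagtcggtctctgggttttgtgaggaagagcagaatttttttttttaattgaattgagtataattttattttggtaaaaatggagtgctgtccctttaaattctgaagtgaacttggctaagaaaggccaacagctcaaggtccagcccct
The windows are chr5:75152001-75152250 (plus strand) for *Pdgfra*, chr9:56864854-56865032 (plus) for *Cspg4*, chr16:91225300-91225456 (plus) for *Olig2*, chr14:46390670-46390919 (minus) for *Bmp4* and chr8:46986637-46986886 (plus) for *Enpp6*. The window of *Olig2* held 14 CG pairs in 157 bases and that of *Cspg4* 8 in 179 bases, where the median over 32851 RefSeq windows cut to the same length was 3. *Bmp4* had 11 in 250 bases against a median of 6, and *Pdgfra* and *Enpp6* had 4 each against the same median. CG pairs were thus more frequent than the median in 2 of the higher genes and in 1 of the split genes. CATCTG occurred once, in *Pdgfra*, and in 14.4% of all windows of that length. AACAAT occurred once, in *Enpp6*, and in 9.42% of all windows, and CAGCTG was in none of the 5.

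*Pdgfra* encodes the receptor for PDGF-A, the chief mitogen of OPCs. It was counted at 88.5 and 82.3 CPM in the control samples and at 99.5 and 106.8 CPM in the *Ash1L* shRNA samples. The knockdown samples thus lay above both controls, at 103 ± 5.15 CPM against 85.4 ± 4.35 CPM (SD, n = 2 each). The log2 fold change was 0.27 ± 0.11 (SE), with a 95% interval from 0.0026 to 0.54, an unadjusted p of 0.0484 and an adjusted p of 0.293 (edgeR). The call was narrow. It was lost with DESeq2, with the likelihood ratio test and without the count filter, and with control sample 1, control sample 2 or *Ash1L* shRNA sample 2 left out, where the log2 fold change was 0.33, 0.22 and 0.22. In the fit with a replicate block its unadjusted p was 0.104. The gene lies at chr5:75152292-75198215 on the plus strand (GRCm38, mm10), and the window printed for it held the 1 CATCTG match.

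*Cspg4* encodes NG2, the surface proteoglycan by which OPCs are often identified. Its level was 26.2 and 30.4 CPM in the control samples and 32.6 and 39.6 CPM in the *Ash1L* shRNA samples. The groups did not overlap, but the gap between the nearest samples was smaller than the spread within either group. The log2 fold change of 0.35 ± 0.16 (SE; 95% interval -0.030 to 0.72) missed the threshold, with an unadjusted p of 0.0656 and an adjusted p of 0.320 (edgeR). It passed with library-size scaling, with a log2 fold change of 0.39. Without *Ash1L* shRNA sample 1 the log2 fold change was 0.47. *Cspg4* is at chr9:56865033-56899870 (plus strand).

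Among the transcription factors of the whole lineage, *Olig2* and *Sox10* were the higher pair. *Olig2*, which specifies the lineage and is needed for OPCs to form, stood at 10.2 and 9.21 CPM in the control samples and at 14.2 and 11.9 CPM in the *Ash1L* shRNA samples. Both knockdown samples were above both controls, and the log2 fold change was 0.44 ± 0.19 (SE; 95% interval -0.021 to 0.89; unadjusted p = 0.0584, adjusted p = 0.309, edgeR). The threshold was passed with library-size scaling, with a log2 fold change of 0.47. Without *Ash1L* shRNA sample 2 the log2 fold change was 0.56. *Sox10*, which acts with *Olig2* and later with *Myrf* on lineage genes, was counted at 19.7 and 17.5 CPM in the control samples and at 25.01 and 23.9 CPM in the *Ash1L* shRNA samples. Both knockdown samples were again above both controls, with group means of 18.6 ± 1.57 and 24.5 ± 0.763 CPM (SD, n = 2 each). The log2 fold change was 0.40 ± 0.14 (SE; 95% interval 0.06 to 0.74), with an unadjusted p of 0.0286 and an adjusted p of 0.263 (edgeR). *Sox10* lost the call with DESeq2 at an unadjusted p of 0.0525 and with the replicate block at 0.0517. It also lost it without control sample 1, control sample 2 or *Ash1L* shRNA sample 1, at log2 fold changes of 0.50, 0.31 and 0.37. *Sox10* lies at chr15:79154908-79165240 (minus strand).

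*Olig1* did not follow *Olig2*, although the genes are neighbours on chromosome 16. *Olig2* is at chr16:91225457-91228677 and *Olig1* begins 41.1 kb beyond its end, at chr16:91269772-91271933, both on the plus strand. *Olig1*, which promotes maturation and repair of myelin, stood at 39.4 and 37.0 CPM in the control samples and at 45.6 and 33.7 CPM in the *Ash1L* shRNA samples. One knockdown sample was therefore above both controls and the other below both, and the log2 fold change was 0.06 ± 0.17 (SE; 95% interval -0.36 to 0.47; adjusted p = 0.888, edgeR). Its sign turned without *Ash1L* shRNA sample 1, at -0.18. The count of *Olig1* divided by that of *Olig2* was 3.86 and 4.02 in the control samples and 3.20 and 2.83 in the *Ash1L* shRNA samples. This ratio was lower in both knockdown samples, with a two-sided exact permutation p of 0.333, the smallest that 2 samples against 2 can give, and of 1 after adjustment over the 10 ratios computed. *Nkx2-2*, a homeodomain factor that promotes differentiation, was counted at 1.35 and 1.08 CPM in the control samples and at 1.35 and 1.16 CPM in the *Ash1L* shRNA samples. Its levels overlapped between the groups, and its 95% interval for the log2 fold change reached from -0.93 to 1.07 (estimate 0.07, edgeR). The estimate turned to -0.10 without control sample 2 and to -0.049 without *Ash1L* shRNA sample 1.

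**Figure D2:**
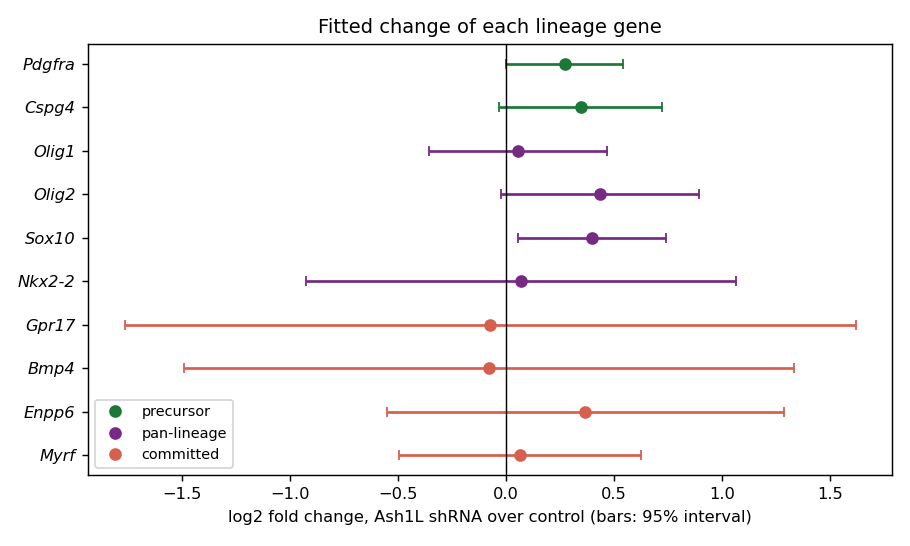
Log2 fold change of each lineage gene, *Ash1L* shRNA over control, from the edgeR fit to all 16232 genes, with bars for the 95% interval and colours for the stage each gene marks. Only the intervals of *Pdgfra* and *Sox10* leave out 0, and that of *Gpr17*, from -1.76 to 1.62, is the widest of the 10.

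The committed genes carried the largest difference between the knockdown samples. *Gpr17*, a G protein-coupled receptor that marks premyelinating cells and restrains their maturation, was counted at 66.7 and 68.9 CPM in the control samples and at 102.0 and 26.7 CPM in the *Ash1L* shRNA samples. The counting intervals of the controls overlapped, whereas *Ash1L* shRNA sample 1 stood at 1.505 times and sample 2 at 0.393 times the control mean. The counting intervals of the knockdown samples were far apart, from 98.3 to 106 and from 24.5 to 29.0 CPM (exact Poisson, 95%, counting error only). Of all genes tested, 99.6% differed less between the *Ash1L* shRNA samples than *Gpr17* did, and 16.4% differed less between the controls. The fitted log2 fold change was -0.07 ± 0.63 (SE; 95% interval -1.76 to 1.62; adjusted p = 0.965, edgeR). With sample 1 left out it was -1.35 and with sample 2 left out it was 0.59, so the direction was set by which knockdown sample was kept.

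*Bmp4*, a secreted ligand that is expressed by committed precursors, had the same order of samples as *Gpr17*. It was counted at 2.55 and 3.79 CPM in the control samples and at 4.67 and 1.35 CPM in the *Ash1L* shRNA samples, from 28 to 133 counts per sample. The difference between the knockdown samples, 3.46-fold, was larger than that of 98.9% of all genes, and their counting intervals of 3.90 to 5.56 and 0.898 to 1.95 CPM did not meet. The interval of sample 1 overlapped that of control sample 2, 3.17 to 4.49 CPM. The interval of sample 2 overlapped that of control sample 1, 1.79 to 3.53 CPM. The controls also differed more than most genes did, with 89.5% of all genes closer. The fitted log2 fold change was -0.08 ± 0.58 (SE; adjusted p = 0.958, edgeR). It was -1.26 without *Ash1L* shRNA sample 1, 0.53 without *Ash1L* shRNA sample 2 and 0.25 without control sample 2.

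*Enpp6*, a choline phosphodiesterase gene of newly forming oligodendrocytes, showed the split in weaker form. It stood at 7.51 and 8.12 CPM in the control samples and at 13.9 and 6.22 CPM in the *Ash1L* shRNA samples, 1.78 and 0.796 times the control mean. Sample 1 was clearly above the controls, and the counting interval of sample 2, 5.196 to 7.40 CPM, overlapped those of both controls. The log2 fold change was 0.37 ± 0.38 (SE; adjusted p = 0.640, edgeR). It was -0.34 when *Ash1L* shRNA sample 1 was left out and 0.83 when sample 2 was left out. *Myrf*, the membrane-bound transcription factor that turns on myelin genes, did not share the split. It was counted at 11.5 and 17.9 CPM in the control samples and at 16.0 and 15.1 CPM in the *Ash1L* shRNA samples. The knockdown samples lay together between the controls, which differed from each other more than 93.5% of all genes did. The log2 fold change of 0.07 ± 0.23 (SE; adjusted p = 0.906, edgeR) turned to -0.19 without control sample 1 and became 0.42 without control sample 2.

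The split was large against the precursor marker within the same samples. The count of *Gpr17* per count of *Pdgfra* was 0.754 and 0.837 in the control samples and 1.03 and 0.250 in the *Ash1L* shRNA samples, a 4.10-fold difference between the knockdown samples. *Bmp4* per *Pdgfra* was 0.0288 and 0.0461 in the controls against 0.0470 and 0.0127, and *Enpp6* per *Pdgfra* was 0.0849 and 0.0987 against 0.140 and 0.0583. *Sox10* per *Pdgfra* was 0.223 and 0.212 in the controls against 0.251 and 0.224. It was slightly higher in both knockdown samples, with a two-sided exact permutation p of 0.333. *Cspg4* per *Pdgfra* stayed between 0.296 and 0.371 in the 4 samples. Summed per kb of exon, the committed genes reached 16.5 and 18.3 CPM per kb in the controls and 25.8 and 8.47 in the *Ash1L* shRNA samples. *Gpr17* held most of that sum, at 12.8 and 13.3 CPM per kb in the controls and 19.6 and 5.14 in the *Ash1L* shRNA samples. *Myrf*, also part of it, was at 1.87 and 1.76 CPM per kb in the *Ash1L* shRNA samples. The precursor genes reached 11.0 and 10.8 CPM per kb in the controls against 12.7 and 14.0.

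**Figure D3:**
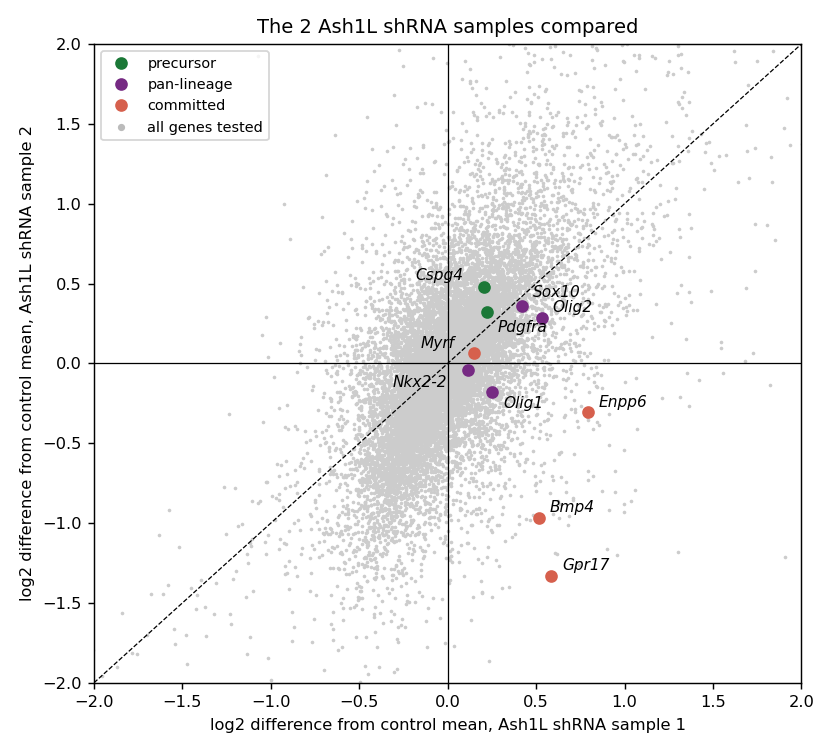
Log2 difference from the control mean in *Ash1L* shRNA sample 1 (horizontal) and sample 2 (vertical) for the 10 lineage genes in colour and all genes tested in grey, with the dashed line where both samples are equal and genes beyond the axes not drawn. *Gpr17*, *Bmp4*, *Enpp6* and *Olig1* and, close to the origin, *Nkx2-2* lie in the lower right quadrant, which holds genes above the control mean in sample 1 and below it in sample 2.

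Above both controls in *Ash1L* shRNA sample 1 and below both in sample 2 were 4 of the 10 lineage genes (*Gpr17*, *Bmp4*, *Enpp6* and *Olig1*) and 966 of all 16232 genes tested, or 5.95%. At no more than 0.5 times the level of sample 1 in sample 2 were 3 of the 10 (*Gpr17*, *Bmp4* and *Enpp6*), against 280 of all genes, or 1.72%. Microglial markers, which belong to another cell type, moved with them. Summed over all 6, they stood at 330 and 336 CPM per kb in the controls and at 451 and 171 in *Ash1L* shRNA samples 1 and 2. *C1qa*, *Cx3cr1* and *P2ry12* were above both controls in sample 1 and below both in sample 2. *C1qa*, a complement subunit, was counted at 145 and 152 CPM in the controls and at 225 and 77.0 CPM in the *Ash1L* shRNA samples. The part of the microglial difference in the split of *Gpr17*, *Bmp4* and *Enpp6* was not tested. No marker of the lists used here was at 0 in any sample.

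Other genes of the lineage were read from lists for each stage. Over all 16232 genes tested, 8068 were higher and 8164 lower, with 8.61% UP and 8.28% DOWN (edgeR). The counts of each list here and below compare with these shares. Of 15 other precursor genes, 11 were higher and 4 lower, with 3 UP (*Vcan*, *Matn4* and *Lhfpl3*) and 1 DOWN (*Xylt1*), and their median was 0.20 on the log2 scale. *Vcan*, the gene of the matrix proteoglycan versican, rose from 43.6 and 46.7 CPM in the controls to 61.4 and 93.0 CPM, a log2 fold change of 0.77 ± 0.20 (SE; adjusted p = 0.255, edgeR). *Lhfpl3* rose by 0.46 and *Matn4* by 0.76 on the log2 scale, and *Xylt1*, a xylosyltransferase gene of proteoglycan synthesis, fell by 0.36. *Neu4*, a sialidase gene, showed the split of *Gpr17*, at 11.9 and 10.46 CPM in the controls and 17.1 and 6.51 CPM in the *Ash1L* shRNA samples. The UP calls were not stable as single samples were left out. The DOWN call was lost when either control sample was left out, with DESeq2, with the likelihood ratio test and with library-size scaling. The list's median was 0.014 without *Ash1L* shRNA sample 1.

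Of 10 other genes of committed and newly formed oligodendrocytes, 9 could be tested, 7 of them higher and 2 lower, and their median was 0.26. *Cnksr3* alone was UP, at a log2 fold change of 0.58, and it lost the call with DESeq2, with the crossed replicate block and without control sample 1. *Bcas1*, the gene of a protein of early myelinating cells, stood at 98.9 and 78.7 CPM in the controls and 152 and 91.1 CPM in the *Ash1L* shRNA samples, high in sample 1 and within the controls in sample 2. The list's median was 0.036 without *Ash1L* shRNA sample 1. *Lims2* was at 11.3 and 10.6 CPM in the controls and at 13.3 and 6.71 CPM in the *Ash1L* shRNA samples. *Lims2* lies beside *Gpr17* on the opposite strand and shares 188 bases of exon with it, 3.62% of the exonic length of *Gpr17*. The strand setting of the counting is not given in the sources used here, so reads in that overlap may be shared between them. *Bmp4* overlaps *Gm15217* over 89 bases of exon (3.96%) in the same way.

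Mature myelin genes had a negative median of -0.26 on the log2 scale. Of 12, 10 were lower and 2 higher, with 2 DOWN (*Opalin* and *Mal*) and 0 UP by edgeR. *Opalin*, the gene of a myelin membrane glycoprotein, fell from 12.3 and 14.1 CPM to 8.98 and 5.60 CPM, a log2 fold change of -0.86 ± 0.26 (SE; adjusted p = 0.260, edgeR). *Mal*, the gene of a proteolipid of compact myelin, fell by 0.49 on the log2 scale. *Mbp*, the gene of myelin basic protein, stood at 1190 and 1216 CPM in the controls against 1224 and 1186, with a log2 fold change of 0.0025 ± 0.11 (SE). Without control sample 2 both DOWN calls were lost and the median was -0.090. The median was -0.33 without *Ash1L* shRNA sample 1, -0.40 without control sample 1 and -0.11 without *Ash1L* shRNA sample 2.

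The pathways to which the receptor and the ligand among the 10 belong were read from lists as well. Their calls compare with 8.61% UP and 8.28% DOWN over all genes tested. Of 5 other PDGF ligands and receptors 4 were higher and 1 lower, with 0 UP or DOWN (edgeR) and a median of 0.05, which ran from -0.085 to 0.17 as single samples were left out. *Pdgfa*, the ligand of the *Pdgfra* receptor, stood at 22.0 and 22.9 CPM in the controls and 24.2 and 28.9 CPM in the *Ash1L* shRNA samples, above both controls but with an unadjusted p of 0.150 (edgeR). The median of the PDGF list was 0.15 without *Ash1L* shRNA sample 1. Of 25 genes of the BMP pathway 14 were lower and 11 higher, with a median of -0.09, 1 DOWN (*Id4*) and 0 UP. *Id4*, an inhibitor of basic helix-loop-helix factors that OPCs and astrocytes express, fell from 28.3 and 27.7 CPM to 16.2 and 8.01 CPM, a log2 fold change of -1.199 ± 0.32 (SE; adjusted p = 0.256, edgeR). The median of the BMP list was 0.0032 without *Ash1L* shRNA sample 1 and -0.014 without control sample 1. It was -0.053 without control sample 2 and -0.14 without *Ash1L* shRNA sample 2.

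Other transcription regulators of the lineage had a median below 0. Of 16 tested, 9 were lower and 7 higher, with a median of -0.15, and 4 were DOWN (*Id4*, *Hes5*, *Nfib* and *Zfp536*) with 0 UP by edgeR. *Hes5*, a Notch target, fell by 0.73, *Nfib* by 0.55 and *Zfp536* by 0.38 on the log2 scale. *Sox8*, a relative of *Sox10*, stood at 43.8 and 41.7 CPM in the controls and 36.7 and 26.0 CPM in the *Ash1L* shRNA samples. Both knockdown samples were below both controls for *Sox8*, with an unadjusted p of 0.0501 (edgeR). *Zfp488*, an oligodendrocyte-specific factor, had the highest value of the list, a log2 fold change of 0.56 ± 0.39 (SE). DESeq2 gave 6 DOWN calls. Some of the 4 edgeR calls were lost without control sample 1, control sample 2 or *Ash1L* shRNA sample 2. The median was -0.30 without *Ash1L* shRNA sample 1 and -0.20 without *Ash1L* shRNA sample 2. Most astrocyte markers were lower too. Of 7, 5 were DOWN (*Aldoc*, *Gja1*, *Slc1a3*, *Aldh1l1* and *Slc1a2*), and some of these calls were lost when either control sample was left out. The other 2 were not lower, with log2 fold changes of 0.11 for *Aqp4* and 0.00071 for *Gfap*. The astrocyte median was -0.59. The summed level was 691 and 714 CPM per kb in the controls against 533 and 384 in the *Ash1L* shRNA samples. The part of astrocytes in the values of *Id4*, *Hes5* and *Nfib* was not tested.

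**Figure D4:**
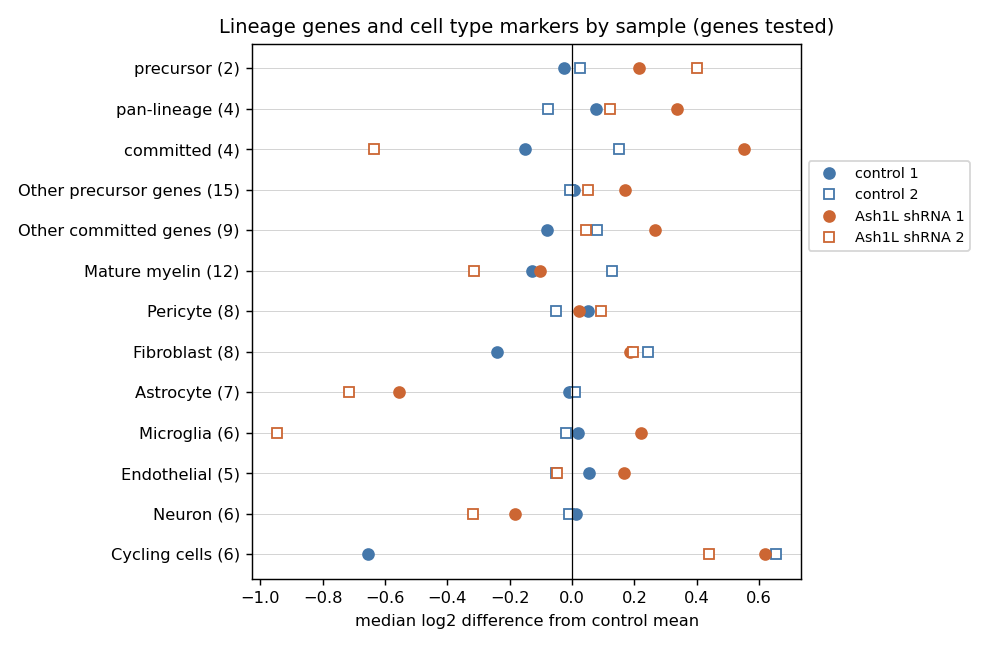
Median log2 difference from the control mean over the tested genes of each group or list (number in parentheses), with 1 marker for each sample. Committed genes and microglial markers are the rows in which *Ash1L* shRNA sample 1 lies highest and sample 2 lowest of the 4 samples, and astrocyte and neuronal markers lie below both controls in both knockdown samples.

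Cell types that share *Cspg4* or *Pdgfra* with OPCs were measured in the same samples. Pericytes, which also express *Cspg4*, had markers that summed to 70.3 and 62.4 CPM per kb in the controls and to 68.4 and 56.6 in the *Ash1L* shRNA samples. *Vtn* held the largest share of that sum and had the lowest log2 fold change of the list, -0.39. It stood at 40.0 and 34.3 CPM per kb in the controls against 32.9 and 23.7, lower in both knockdown samples. The other 7 markers, a sum added after the data were examined, reached 30.2 and 28.1 CPM per kb in the controls. Without *Vtn* the sum was 35.5 and 32.8 in the *Ash1L* shRNA samples, higher in both, so its direction rested on leaving *Vtn* out. The part of pericytes in the level of *Cspg4* was not tested. Of 8 pericyte markers 6 were higher and 2 lower, with a median of 0.03 and 1 UP (*Abcc9*). That call was lost with DESeq2, with the likelihood ratio test and when either control sample was left out. The pericyte median was 0.23 without control sample 1 and 0.19 without control sample 2. Fibroblasts of the meninges and vessels, which also express *Pdgfra*, had markers that summed to 18.4 and 25.4 CPM per kb in the controls and 26.1 and 23.3 in the *Ash1L* shRNA samples. Of 8 fibroblast markers 6 were higher and 2 lower, with a median of 0.24, 2 UP (*Col3a1* and *Lum*) and 1 DOWN (*Slc6a13*). *Col3a1*, a collagen gene, stood at 11.97 and 30.3 CPM in the controls and at 42.8 and 49.7 CPM in the *Ash1L* shRNA samples. DESeq2 gave 1 UP call, and UP calls were also lost without control sample 1, *Ash1L* shRNA sample 1 or *Ash1L* shRNA sample 2. The fibroblast median was -0.026 without control sample 1 and 0.64 without control sample 2, so its sign rested on which control was kept. The part of fibroblasts in the level of *Pdgfra* was not tested.

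Markers of dividing cells, among which OPCs count in adult cortex, differed between the controls. Their sum was 2.42 CPM per kb in control sample 1 and 7.48 in control sample 2, against 6.37 and 6.18 in the *Ash1L* shRNA samples, and *Mki67* stood at 8.15 and 23.7 CPM in the controls against 22.1 and 23.6. Of 6 cycling markers 5 were higher and 1 lower with 0 UP or DOWN (edgeR), and a median of 0.33. The median was -0.20 without control sample 1 and 1.39 without control sample 2. Microglial markers were lower in 5 of 6 genes with 0 calls (edgeR) and a median of -0.19. That median was -0.95 without *Ash1L* shRNA sample 1 and 0.22 without *Ash1L* shRNA sample 2. Endothelial markers were higher in 3 of 5 genes with 1 UP (*Kdr*) and a median of 0.06, which ran from -0.094 without control sample 2 to 0.19 without control sample 1. Neuronal markers were lower in 5 of 6 genes with 1 DOWN (*Syt1*) and a median of -0.24. That call was lost without control sample 2.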

How the data were processed

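The authors prepared stranded, ribosomal-RNA-depleted libraries, aligned the paired-end reads to mm10 with STAR and made gene counts with featureCounts. They deposited unnormalized counts for each gene symbol, and the labels name TopHat2 in place of STAR. Counts were filtered with filterByExpr, scaled by TMM and tested in edgeR 4.0.16 (R 4.3.3) with the robust quasi-likelihood F test on all 16232 genes, with Benjamini-Hochberg adjustment. Standard errors were computed as log2 fold change over the root of F. UP and DOWN follow the study, an unadjusted p under 0.05 and at least 1.2-fold, where the authors used DESeq2. Plotted log2 levels carry a prior of 0.5 CPM. Exonic lengths came from GENCODE vM21 by symbol, with 93.7% of the symbols matched. Chi-square over degrees of freedom, compared within a group, came to 13.0 in the controls and 37.0 in the *Ash1L* shRNA samples, so replicates are not 1 library counted again.

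The 10 genes and the 13 lists of lineage and cell type genes were chosen with earlier results of these data known. Genes are named if they are among the 10, or among the 4 highest per kb or at either end of the log2 fold changes of a list, or if they belong to a count of 5 or fewer. *Neu4*, *Mal* and *Aldh1l1* belong to such counts, and *Matn4*, *Hes5* and *Zfp536* likewise. *Pcdh17it* and *Zfp24* were not analysed here. A few genes under this rule are not reported here. Same-numbered samples had deviations that correlated at -0.13 and were not taken as pairs. Alternatives were RLE, upper-quartile and library-size scaling, DESeq2 1.42.0, the likelihood ratio test, other count filters, the replicate block, a crossed block added after the data were examined, leaving out each sample in turn, and a limit of 1.5-fold.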

Additional observations from a re-analysis of the deposited data

How the results depend on the processing

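The number of lineage genes called UP was 2. It was 4 with library-size scaling, 1 with the likelihood ratio test, 1 without a count filter, 0 with DESeq2, 0 with the replicate block and 0 at a 1.5-fold limit. The calls changed as each sample was left out. Lineage genes called DOWN numbered 0 under each of these settings with all 4 samples kept. Genes whose groups did not overlap numbered 4, and 5 to 9 were found with a sample left out, where 72.8% to 83.5% of all genes did not overlap, against 53.2% with all 4 samples. In a fit with 1 sample in an arm, that sample is assumed to vary like those of the other group. The median log2 fold change of the 10 genes ran from -0.02 to 0.35. The estimates that turned their sign did so only with a sample left out, and their ranges were -1.35 to 0.59 for *Gpr17*, -1.26 to 0.53 for *Bmp4*, -0.34 to 0.83 for *Enpp6*, -0.18 to 0.26 for *Olig1*, -0.19 to 0.42 for *Myrf* and -0.10 to 0.22 for *Nkx2-2*. *Pdgfra*, *Cspg4*, *Olig2* and *Sox10* kept a positive sign under each setting. Apart from the settings' own construction, the cause of these changes was not tested. Pairing by replicate number was a label only, and the replicate block took away both UP calls, while the crossed block, with same-numbered deviations at -0.13, left 2 UP. Over all genes, those past an adjusted p of 0.05 numbered 1 in the edgeR fit, 421 with DESeq2, 479 with the likelihood ratio test, 34 without a count filter, 16 with the crossed block, 0 with the replicate block and 2502 without *Ash1L* shRNA sample 1. The DOWN and UP genes over all genes numbered 1344 and 1397, or 306 and 423 without control sample 2 and 2718 and 2368 without *Ash1L* shRNA sample 1. Depth limits *Nkx2-2* and *Bmp4*, with 19 to 38 and 28 to 133 counts per sample.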
